A study of Mus musculus with 3 samples.

Results

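Solute carriers are membrane proteins that move amino acids, sugars, ions, metals, vitamins and lipids across the plasma membrane and the membranes of organelles. The genes examined were all UniGene clusters (groups of transcript sequences assigned to a gene) whose mouse symbol starts with Slc and a number, named by their description or by an exact match of their tags to reference transcripts, with at least 30 tags in the 3 libraries together. By this rule 199 clusters of 191 genes were members, of 292 clusters named Slc and of 20595 clusters in all. The other 93 clusters named Slc held fewer tags. Just inside the minimum lay Slc2a9, with 9, 11 and 10 tags on days 0, 1 and 2, and Slc35d2, with 7, 15 and 8 tags. Just outside lay Slc5a10, with 14, 11 and 4 tags, and Slc25a13, with 6, 21 and 2 tags. Members were chosen by name and selected on their tags summed over the 3 days, and the level alone is therefore no result; the ratio between days did not enter the choice. Of the members, 193 were named by tags of their own, 5 by tags that also occur in other genes or pseudogenes (Slc25a5, Slc39a7, Slc39a1 cluster 2, Slc22a5 and Slc23a1), and 1 (Slc38a2 cluster 1) by its description.

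Skin was taken whole from 2-month-old male C57BL/6 mice whose hair had been depilated 9 days before the injection, which sets off active hair growth. Day 0 was untreated skin, and days 1 and 2 followed an intraperitoneal dose of 150 mg/kg cyclophosphamide, an alkylating drug that damages the DNA of dividing cells. Each day was 1 library, all were depilated, and no untreated skin of days 1 and 2 was among the samples used here, so that drug, time since depilation and the single library of each day cannot be told apart. The sources used here do not say how many mice each library held.

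The libraries were digital gene expression libraries, in which NlaIII cuts cDNA at CATG and a 21-base tag from a cut site stands for the transcript. The tables held 2731787, 2859653 and 2636804 tags on days 0, 1 and 2. Levels are given as CPM, tags per 1000000 after scaling of the libraries, and are not divided by length, since a tag and not the whole transcript was counted. Ratios are log2 values with 95% intervals that cover counting error only, and PCR copies were not separated from molecules. To be called higher or lower a cluster needed a 2-fold ratio and an adjusted p of 0.001 or less in an exact binomial test of the tags of 2 libraries, with Benjamini-Hochberg adjustment over 13812 clusters of at least 15 tags. With 1 library a day this test compares those libraries and not the conditions, and no difference below has a replicate check.

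In skin, solute carriers feed the dividing matrix of the hair follicle, load pigment organelles, move the zinc on which many skin proteins depend, carry fatty acids into the barrier lipids of the epidermis, and serve the muscle layer and fat beneath it. Zinc importers of the Slc39 family raise cytosolic zinc and exporters of the Slc30 family lower it; Slc31a1 takes up copper and Slc40a1, ferroportin, exports iron. Carriers of the Slc25 family sit mainly in the inner mitochondrial membrane.

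The tags behind the values that turn on single cut sites are shown first, because several metal carriers had different ratios at different sites. Sites are counted from the 3′ end, as the deposited tables number them, and site 1 is the last CATG by that numbering. It need not be the last of a reference transcript: site 20 of Slc35e1 lies 110 bases from the end of one. Each tag is written 5′ to 3′ with the NlaIII site CATG in capitals, as the deposited tables list it.
Slc39a10 site 1: CATGtgacatccataaagatt
Slc39a10 site 10: CATGgaactccgtgtaccaat
Slc30a1 site 1: CATGaggctttatggattgtt
Slc30a1 site 16: CATGataaaaattagggggat
Slc40a1 site 1: CATGcattgctgtgagcactt
Slc40a1 site 9: CATGtgtgcttattttgtact
Slc31a1 site 1: CATGccatttaatcttgtgcc
Slc31a1 site 13: CATGacctacaatgggtacct
Slc39a8 site 11: CATGatccagaatgcagggat
Slc6a8 site 1: CATGgctcccacctccaagct
Slc6a8 site 4: CATGagtgctaacaaaaataa
In GENCODE M21 on GRCm38, each of these tags occurs in transcripts of 1 gene. The Slc39a10 tags lie on the minus strand in exon 10, in the 3′ UTR, at chr1:46807849-46807869 for site 1 and chr1:46809729-46809749 for site 10. Those of Slc30a1 lie on the plus strand in exon 2, in the 3′ UTR, at chr1:191913137-191913157 and chr1:191910065-191910085. Those of Slc40a1 lie on the minus strand in exon 8, in the 3′ UTR, at chr1:45908276-45908296 and chr1:45909344-45909364. The Slc31a1 tags lie on the plus strand in exon 5, site 1 in the 3′ UTR at chr4:62391553-62391573 and site 13 in the coding part at chr4:62388685-62388705. The Slc39a8 tag lies on the plus strand in exon 8, in the coding part, at chr3:135886870-135886890. The Slc6a8 tags lie on the plus strand in exon 13, in the 3′ UTR, at chrX:73682249-73682269 for site 1 and chrX:73681237-73681257 for site 4.

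Few solute carriers changed between any days. Between day 0 and day 1, 5 of the 199 members rose and 3 fell, against 1.44% of all clusters tested that were called higher and 1.35% called lower. Between day 0 and day 2, 7 members rose and 5 fell, against 3.41% and 3.03% of all clusters. Between day 1 and day 2, 2 members rose and 4 fell, against 1.8% and 1.1% of all clusters. In percent of the members, the day 1 counts over day 0 were 2.51 and 1.51, the day 2 counts over day 0 were 3.52 and 2.51, and the day 2 counts over day 1 were 1.01 and 2.01. Among all clusters with 30 or more tags, the minimum that members met, the shares called higher and lower were 1.68% and 1.58%, then 3.98% and 3.59%, then 2.10% and 1.29%. The median log2 ratio of the members was 0.06 for day 1 over day 0 and 0.05 for day 2 over day 0. Over all clusters tested the medians were -0.02 and 0.01. With the libraries scaled by all tags the authors kept, the day 1 medians were -0.01 for members and -0.09 for all clusters tested. In all, 19 members were called in at least 1 comparison and 180 in none. In whole skin, fewer cells of a type and less RNA per cell cannot be told apart, and this holds for every value below.

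The members held little of each library. Their summed level was 8166, 8560 and 7930 CPM on days 0, 1 and 2, and the 5 members with the most tags supplied 23.8% of it. The median member had 155 tags over the 3 days, with a range from 30 to 5980. A level of 20 CPM or more in any library was reached by 105 members, and 94 stayed below it in all. None was unlisted in a library. In 32 members the 2 libraries with fewer tags together held under 30, so that without their highest library they would not have been members. Of these 2 were called, Slc5a5 and Slc13a3, both higher on day 2 over day 0, and 5 of the 7 members called higher remain without them.

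**Figure D1:**
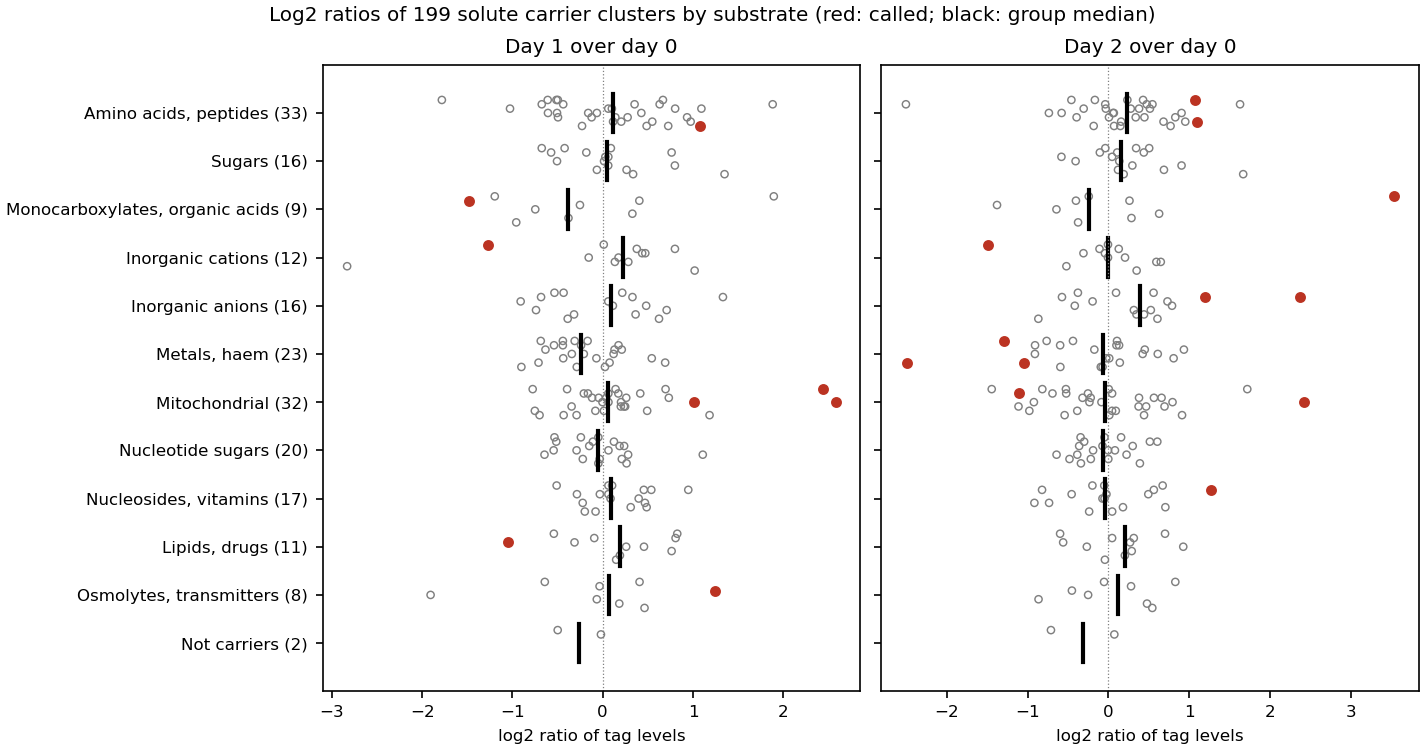
Log2 ratio of tag levels for day 1 over day 0 (left) and day 2 over day 0 (right); each circle is 1 of 199 clusters, placed by the substrate of its carrier with the number of clusters in brackets, red circles are called and black bars are group medians. Most groups centre near 0 in both panels, and the 3 called carriers of metals on day 2 all lie to the left.

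Among carriers of metals and haem, a few with many tags fell by day 2 while the group as a whole was divided. None of the 23 clusters in this group was called on day 1, and on day 2 over day 0 none rose and 3 fell, which is 13% beside the 3.03% of all clusters: Slc39a10, Slc31a1 and Slc39a8. The summed level of the group went from 2180 CPM on day 0 to 1752 on day 1 and 1567 on day 2, the largest sum of the 12 groups on day 0. Its median log2 ratio was -0.24 on day 1 and -0.07 on day 2, where 10 clusters had positive and 13 negative ratios, and most of the change in the sum came from a few clusters with many tags. Without Slc39a10, Slc30a1, Slc40a1 and Slc31a1, which were picked out after their values were seen, the sum of the other 19 was 993, 923 and 962 CPM.

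Slc39a10, a zinc importer of the plasma membrane, had 528 CPM on day 0, 322 on day 1 and 256 on day 2. The level was highest on day 0 and lower on each later day. It fell by 1.04 on the log2 scale by day 2 (interval -1.18 to -0.91, adjusted exact binomial p 1.24e-57), and the day 1 ratio of -0.71 was short of 2-fold. Slc31a1, the copper importer, showed the same order, with 117, 72.9 and 47.8 CPM, and fell by 1.29 by day 2 (interval -1.60 to -1.0). Slc39a8, an importer of zinc and manganese, was highest on day 1, with 49, 76 and 8 tags on days 0, 1 and 2. It fell by 2.5 from day 0 to day 2 (interval -3.86 to -1.48) and fell by 3.19 from day 1 to day 2 (interval -4.53 to -2.21), and 92.5% of its tags came from the single site in its coding part shown above.

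Some uncalled members of the group also had their lowest level on day 2. Slc30a1, the zinc exporter of the plasma membrane, had 322, 237 and 172 CPM, a day 2 ratio of -0.91 (interval -1.07 to -0.75). Slc40a1, the iron exporter, had 220, 196 and 130 CPM, a day 2 ratio of -0.76 (interval -0.96 to -0.57). Exporters did not share a direction: of the 6 Slc30 clusters, 3 had positive and 3 negative day 2 ratios, with a median of 0.06. Slc39a6, a further zinc importer, had 123, 97.0 and 65.4 CPM, a ratio of -0.91 (interval -1.18 to -0.65) on day 2. Slc30a9 had its lowest level on day 1, with 108, 57.6 and 71.3 CPM.

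Further members of the group varied in direction and were not called. Slc30a5, which loads zinc into the early secretory pathway, had 127, 105 and 188 tags, with a day 2 ratio of 0.61 (interval 0.28 to 0.95). Slc39a1 cluster 1, a zinc importer, had 125, 136 and 168 CPM, and Slc31a2 cluster 1, a relative of the copper importer, had 111, 125 and 122 CPM. Slc39a2 and Slc39a13, zinc carriers, had 105, 85 and 67 tags and 87, 67 and 62 tags, and of the 11 Slc39 clusters 8 had negative day 2 ratios. Slc11a2, which takes up ferrous iron, had 41.9, 30.9 and 45.2 CPM, and Slc48a1, a haem transporter, had 76.8, 52.8 and 82.3 CPM. Both had their lowest level on day 1. Of the iron and manganese carriers in the set to be named wherever measured, Slc11a1 had 2 tags and Slc39a14 none listed, so that neither was a member.

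Genes that bind or oxidise metals were looked at beside the carriers. Of 15 on that list 11 were tested and none was called on day 1. On day 2, 1 fell (9.09%, beside 3.03% of all clusters tested). This was Heph, hephaestin, a copper-dependent oxidase that works with the iron exporter, with 56.5, 30.5 and 22.4 CPM. Its day 2 ratio was -1.33. Fth1, the ferritin heavy chain, had 591, 476 and 513 CPM, and Tfrc, the transferrin receptor, had 18.5, 14.9 and 10.7 CPM, neither called. The median of the list was 0.01 on day 2, as it was over all clusters tested to 2 decimals. The adipocyte markers, 10 of 10 tested, summed to 4901, 3603 and 3217 CPM, of which Fabp4 alone supplied 3346, 2197 and 1708. On day 2, 1 of them was called higher and none lower, and 4 had positive and 6 negative ratios. The inner root sheath markers, 7 of 7 tested, summed to 42107, 62071 and 24579 CPM. Markers of macrophages, cells in which Slc40a1 is abundant, summed to 262, 288 and 603 CPM, 8 of 10 tested with Cd68 and C1qa not among them, and 5 of them were called higher on day 2. Their part in the metal carrier values was not tested.

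**Figure D2:**
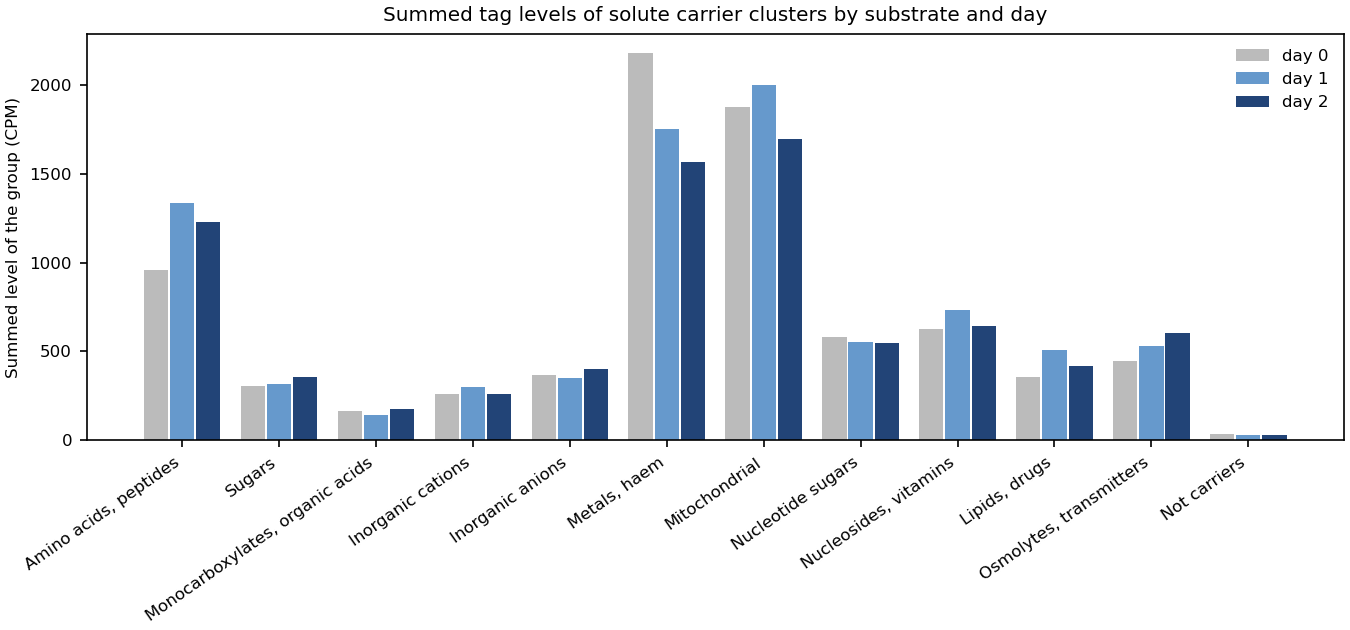
Summed level in CPM of the members of each substrate group on day 0 (grey), day 1 (light blue) and day 2 (dark blue), 1 library a day, with no error bars because there are no replicates. Metals and haem step down from 2180 to 1752 and 1567 CPM, while amino acid carriers are lowest on day 0 at 960 CPM.

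In Slc39a10, Slc30a1 and Slc40a1 the lower level of day 2 was read mostly at site 1. Of these only Slc39a10 was called. Slc39a8, also called, had 0% of its tags at site 1. At site 1 Slc39a10 had 1342, 737 and 590 tags on days 0, 1 and 2, a day 2 ratio of -1.14 (interval -1.28 to -1.0). At its site 10 it had 76, 81 and 61 tags, a ratio of -0.27 (interval -0.78 to 0.24). The intervals of these 2 sites did not meet. Slc30a1 had 627, 396 and 262 tags at site 1, a ratio of -1.21 (interval -1.43 to -1.0), and 198, 192 and 166 tags at site 16, a ratio of -0.21 (interval -0.51 to 0.10). Slc40a1 had 436, 279 and 202 tags at site 1, a ratio of -1.06 (interval -1.31 to -0.82), and 99, 152 and 82 tags at site 9, a ratio of -0.22 (interval -0.66 to 0.21). The other sites of these genes with 30 or more tags had wider intervals. Their ratios were -0.42 at site 3 of Slc39a10, and -0.67 and -0.92 at sites 7 and 17 of Slc30a1. For sites 5, 10 and 21 of Slc40a1 they were 0.05, -0.91 and 0.30. In all 3 genes the distal site was lower on day 2 beyond counting error, while intervals at the other sites given crossed 0. Slc31a1 differed from them: its site 1, with 262, 141 and 101 tags, and its site 13, with 63, 43 and 26 tags, had ratios of -1.32 (interval -1.67 to -0.99) and -1.21 (interval -1.95 to -0.55).

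Such a split between sites was not particular to solute carriers. Among members, 44 had 2 or more sites with 30 or more tags each, and in 10 of them the intervals of some pair of sites did not meet for day 2 over day 0, which is 22.7%. Among 3067 other clusters with such sites the share was 20.4%. For day 1 over day 0 the shares were 20.5% and 19.6%. The part of the members' tags that came from site 1 was 73.1%, 70.7% and 70.1% on days 0, 1 and 2, and of all clusters' tags 69.1%, 71.1% and 69.7%. Why sites of a gene differed was not tested.

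**Figure D3:**
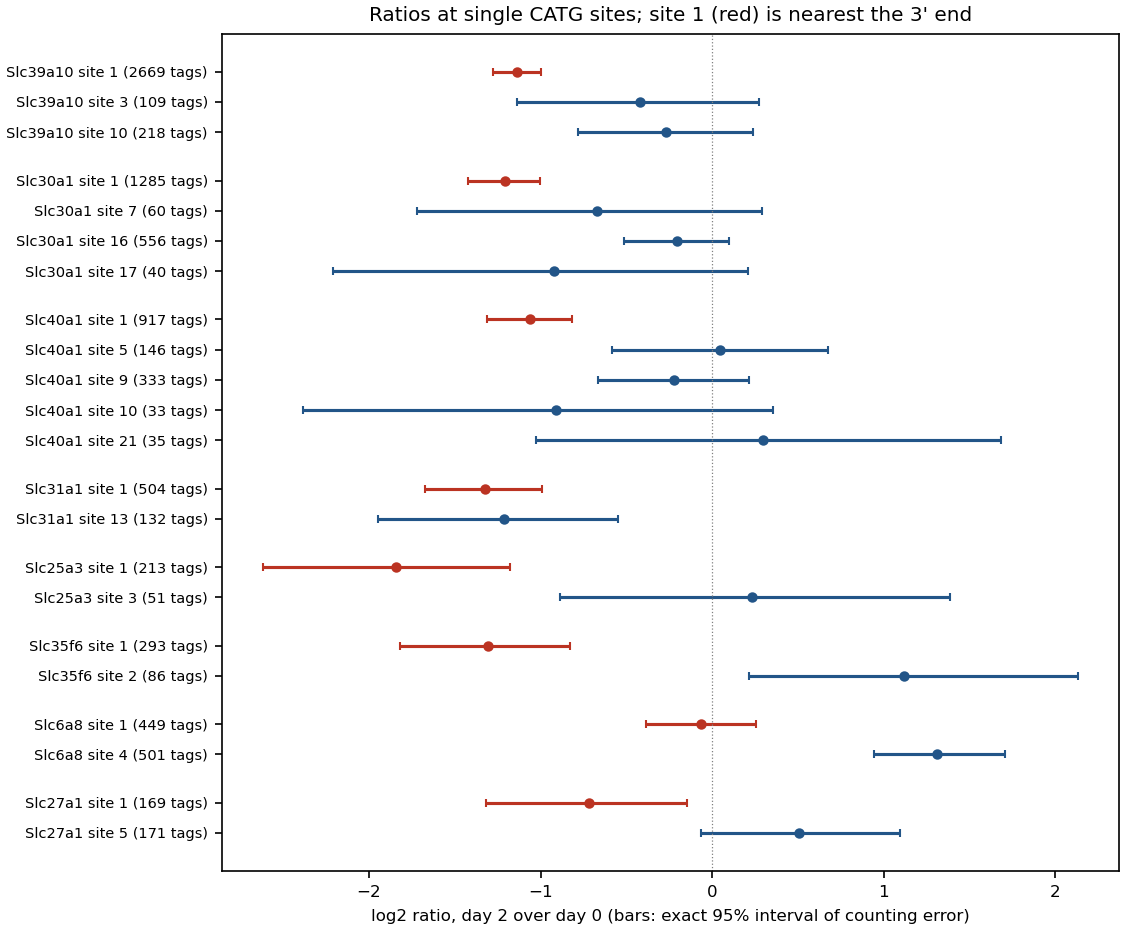
Log2 ratio of day 2 over day 0 at single CATG sites of 8 solute carrier genes, with exact 95% intervals of counting error; red marks site 1, nearest the 3′ end, and blue the sites before it, with the tags of the 3 libraries in brackets. Site 1 of Slc39a10, Slc30a1 and Slc40a1 lies near -1 while their second most used site lies nearer 0, and both sites of Slc31a1 lie below -1.

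Amino acid and peptide carriers had 33 clusters. On day 1, 1 rose (3.03%, beside 1.44% of all clusters tested) and none fell. On day 2 over day 0, 2 rose (6.06%, beside 3.41%) and none fell. Their summed level was 960 CPM on day 0, 1338 on day 1 and 1230 on day 2, and 621, 793 and 711 CPM without Slc7a8 and Slc38a2. The median log2 ratio was 0.12 on day 1 and 0.23 on day 2. Slc7a8, an exchanger of neutral amino acids that pairs with Slc3a2, had the most tags in the group, with 210, 401 and 265 CPM. It was highest on day 1, with a ratio of 0.94 (interval 0.79 to 1.08), just short of 2-fold. On day 2 its site 1, with 486, 920 and 626 tags, had a ratio of 0.41 (interval 0.24 to 0.59) and its site 2, with 98, 138 and 81 tags, one of -0.23 (interval -0.67 to 0.21). Slc3a2, the heavy chain that carries several of these exchangers to the membrane, had 103, 138 and 107 CPM, also highest on day 1.

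Slc43a2, a facilitator of large neutral amino acids, was represented by 2 clusters of separate tags. Cluster 2 had 41, 83 and 68 tags and rose by 1.07 on day 1 (interval 0.53 to 1.66, adjusted exact binomial p 0.000706). Cluster 1 had 70, 132 and 109 tags, a day 1 ratio of 0.97 (interval 0.55 to 1.42), and was not called because it was short of 2-fold. Both clusters had their lowest level on day 0. The call of cluster 2 was lost when the libraries were scaled by all kept tags, by tags outside hair and muscle genes, or with no filter on low counts.

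Slc38a4, a sodium-coupled carrier of neutral amino acids, had 38, 58 and 78 tags and rose by 1.07 by day 2 (interval 0.51 to 1.68), a call lost with no filter on low counts. Slc38a2, the sodium-coupled carrier that cells induce when amino acids are short, had 2 clusters that went apart. Cluster 2, of tags in known transcripts, had 54, 44 and 46 tags. Cluster 1 had 311, 343 and 646 tags and was called higher on day 2 with a ratio of 1.10 (interval 0.90 to 1.30). Of its 1300 tags 94.2% match no reference transcript exactly, and most were copies of a single tag with 266, 299 and 579 copies, in which capitals mark the part before the run of adenines.
Slc38a2 cluster 1 tag: CATGATTAATCaaaaaaaaaa
Of 141767 transcripts, 1 ends in the 11 bases in capitals, and it belongs to Slc38a2 on chromosome 15. The tag thus spells the end of that transcript followed by 10 adenines. Its 75 tags with an exact match to Slc38a2 numbered 27, 24 and 24, and with these alone the day 2 ratio was -0.12. Whether other genes supply copies of this tag was not tested.

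The remaining amino acid carriers were not called. Slc7a11, the cystine and glutamate exchanger, had 29.1, 48.3 and 32.3 CPM, a day 1 ratio of 0.73 (interval 0.32 to 1.15). Slc6a19, a carrier of neutral amino acids, had 88.2, 154 and 126 CPM, a day 1 ratio of 0.80 (interval 0.57 to 1.04). Slc1a5, a glutamine carrier, had 14.2, 18.2 and 19.8 CPM. All 3 were lowest on day 0. Slc7a5, the exchanger of large neutral amino acids found in many dividing cells, had 20, 14 and 3 tags, a day 2 ratio of -2.51 (interval -5.08 to -0.94), and was not called (adjusted exact binomial p 0.00361). Slc15a4, a lysosomal carrier of histidine and peptides, had 62, 53 and 40 tags. Slc6a14, a broad amino acid carrier, had 30, 8 and 21 tags.

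Of 20 genes of the amino acid shortage response and of serine and asparagine synthesis, 14 were tested and none was called on day 1. On day 2 Psat1, an enzyme of serine synthesis, fell, with 30.2, 15.6 and 9.92 CPM and a ratio of -1.59. This 1 call was 7.14% of the 14, beside 3.03% of all clusters tested that were called lower. Atf4, the transcription factor of that response, had 41, 51 and 47 tags and was not called. The median of the list was 0.41 on day 1 and -0.10 on day 2.

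Mitochondrial carriers had 32 clusters. On day 1, 3 rose (9.4%, beside 1.44% of all clusters tested) and none fell. On day 2 over day 0, 1 rose and 1 fell (3.1% each, beside 3.41% and 3.03%). Their summed level was 1875, 2002 and 1696 CPM. The median log2 ratio was 0.06 on day 1, turning to -0.01 with scaling by all kept tags, and -0.04 on day 2, turning to 0.00 with the same scaling. With that scaling the medians over all clusters tested were -0.09 on day 1 and 0.05 on day 2. Slc25a12, the aspartate and glutamate carrier of the malate-aspartate shuttle, had 41.2, 83.3 and 71.6 CPM and rose by 1.01 on day 1 (interval 0.68 to 1.35). It was lowest on day 0. The call was lost when the libraries were scaled by all kept tags or by tags outside hair and muscle genes, since the ratio was close to 2-fold.

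Slc25a48, a mitochondrial carrier read at site 1, had 10, 54 and 33 tags and rose by 2.44 on day 1 (interval 1.51 to 3.64, adjusted exact binomial p 1.41e-07). Slc25a42, which brings coenzyme A into the mitochondrion, had 5, 31 and 28 tags and rose by 2.58 on day 1 (interval 1.32 to 4.42) and by 2.42 on day 2 (interval 1.14 to 4.26). Both had few tags on day 0. Slc25a3, the phosphate carrier that supplies ATP synthesis, had 119, 152 and 53 tags and fell by 1.11 from day 0 to day 2 (interval -1.61 to -0.64) and by 1.53 from day 1 to day 2 (interval -2.02 to -1.08). Its site 1 had 83, 108 and 22 tags, and its site 3 had 14, 21 and 16 tags, so that the lower level was at site 1.

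Slc25a4, the adenine nucleotide translocase of muscle and heart, had the most tags of all members, with 771, 792 and 617 CPM, and a day 2 ratio of -0.32 (interval -0.41 to -0.23). Slc25a11, the oxoglutarate carrier, had 255, 247 and 219 CPM. Slc25a1, the citrate carrier that feeds fatty acid synthesis, had 141, 107 and 97.7 CPM. These 3 were lowest on day 2 and not called. Slc25a5, another adenine nucleotide translocase, had only 12, 13 and 7 tags, all of them shared with other genes or pseudogenes. Slc25a37, mitoferrin, which brings iron into the mitochondria of red cell precursors, had 109, 177 and 109 CPM, highest on day 1, with a ratio of 0.70 (interval 0.49 to 0.91). Its site 1, with 167, 316 and 186 tags, had a day 1 ratio of 0.98 (interval 0.71 to 1.26), and its site 13, with 80, 81 and 56 tags, one of 0.08 (interval -0.38 to 0.55).

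Marker genes of other tissues moved beside these carriers. The skeletal muscle markers, 14 of 15 tested with Pvalb not among them, summed to 12692, 19638 and 25635 CPM, with 5 called higher on day 1 and 6 on day 2. The erythroid markers, 4 of 8 tested, summed to 1809, 1619 and 140 CPM, all 4 fell by day 2, and Hba-a2 had 30, 51 and 0 tags. Slc4a1, the anion exchanger of red cells, had 4 tags over the 3 days and was not a member. Slc25a4 had its lowest level on day 2, where the muscle sum was highest. The part of these tissues in the mitochondrial values, Slc25a4 among them, was not tested.

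Carriers of monocarboxylates and organic acids had 9 clusters. On day 1, 1 fell (11.1%, beside 1.35% of all clusters tested), and on day 2 over day 0, 1 rose (11.1%, beside 3.41%). Slc16a1, the proton-coupled lactate and pyruvate carrier, had 62, 21 and 72 tags. It was low on day 1 alone: it fell by 1.48 on day 1 (interval -2.29 to -0.76) and rose by 1.74 from day 1 to day 2 (interval 1.04 to 2.54), and its day 2 ratio over day 0 was 0.26 (interval -0.25 to 0.78). Slc13a3, a sodium-coupled carrier of succinate and other dicarboxylates, had 3, 12 and 39 tags and was called higher on day 2, with a ratio of 3.54 (interval 2.09 to 6.09). It reached the 30-tag minimum only through its day 2 library, so the call and the day 2 share of 11.1% are given as a description. Without Slc13a3 no cluster of the group was called higher on day 2 over day 0. Its ratio rests on the 3 tags of day 0. Slc16a3, the lactate exporter of glycolytic cells, had 22.7, 28.6 and 35.3 CPM and was not called.

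None of the following members of the group was called. Slc16a7 cluster 1, a pyruvate carrier, had 33.4, 25.7 and 40.8 CPM, and Slc16a7 cluster 2 had 35, 17 and 26 tags. Both were lowest on day 1. Slc5a8, a sodium-coupled monocarboxylate carrier, had 93, 118 and 68 tags; at site 1 these were 40, 36 and 40, and at site 21 they were 51, 68 and 23. Slc16a13 had 60, 34 and 37 tags.

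**Figure D4:**
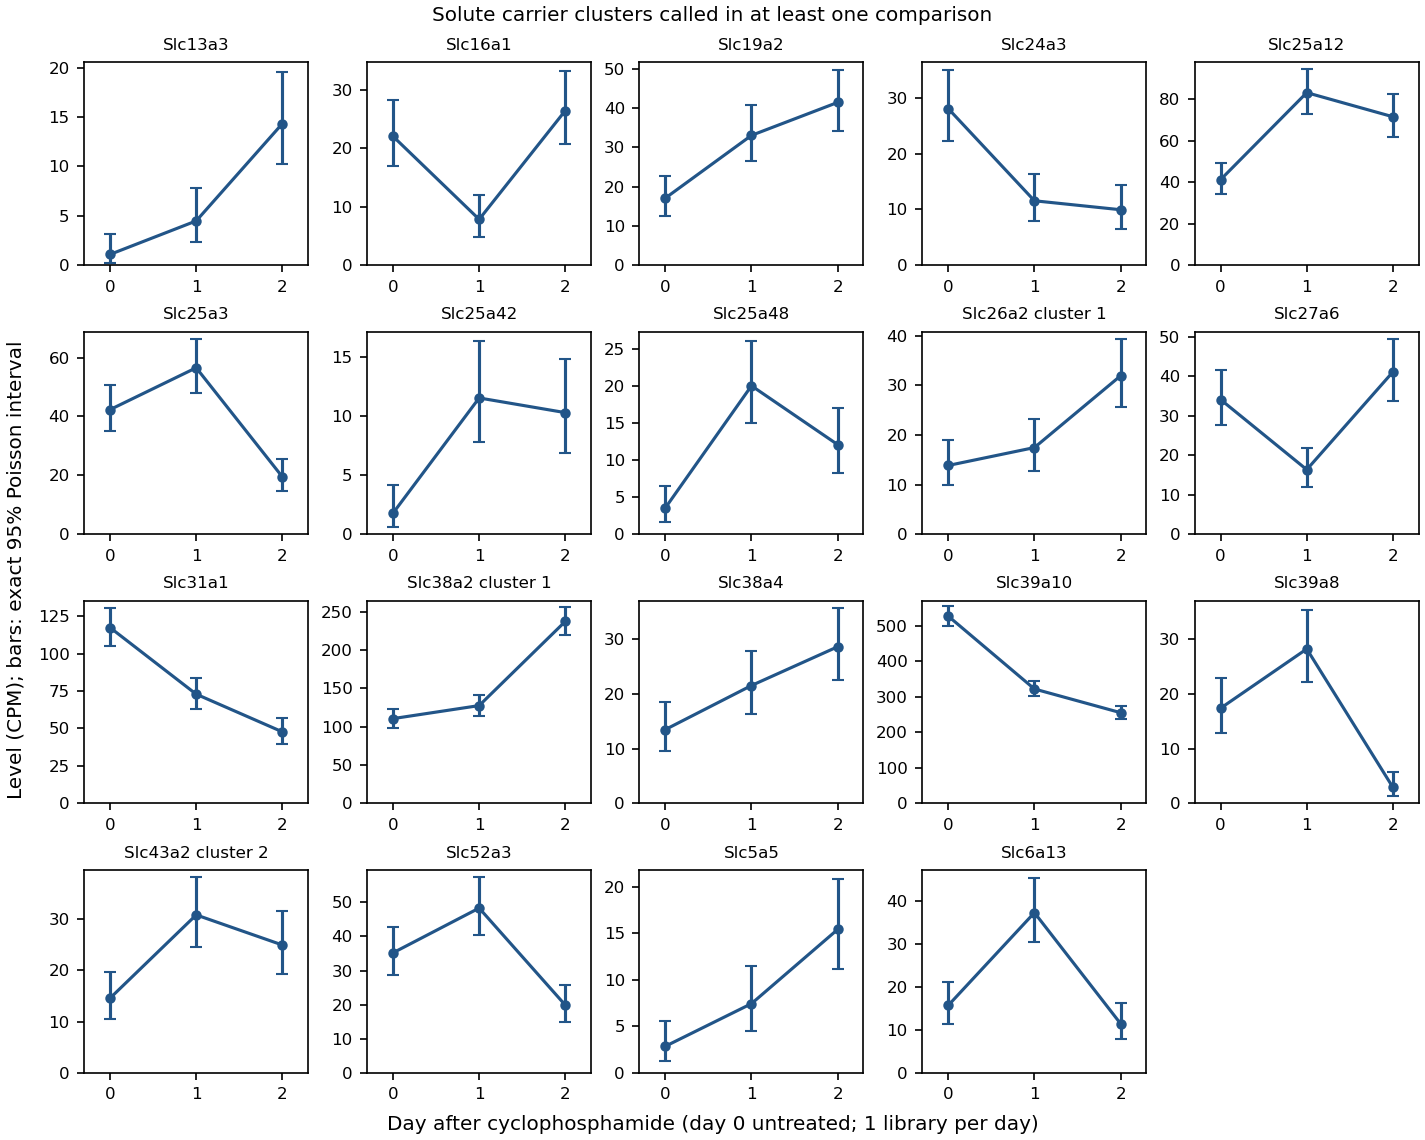
Level in CPM on days 0, 1 and 2 of the 19 solute carrier clusters called in at least 1 comparison, 1 library a day, with exact 95% Poisson intervals of counting error as bars and an axis from 0 in each panel. Slc39a10 and Slc31a1 step down each day, Slc16a1 and Slc27a6 dip on day 1, and Slc6a13 and Slc25a48 peak on day 1.

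Carriers of inorganic cations had 12 clusters, of which 1, Slc24a3, fell on both days (8.33%, beside 1.35% and 3.03% of all clusters tested). Slc24a3, a potassium-dependent exchanger of sodium for calcium, had 79, 31 and 27 tags, and fell by 1.27 on day 1 (interval -1.93 to -0.67) and fell by 1.48 on day 2 over day 0 (interval -2.19 to -0.85). Its level was high on day 0 alone. Slc24a5, the exchanger of the melanosome that sets pigment levels, had 87.8, 119 and 85.2 CPM, highest on day 1 and not called. The melanocyte markers, 6 of 6 tested, summed to 441, 676 and 589 CPM, of which Pmel supplied 86.4, 201 and 254. On day 1, 2 of them were called higher, and on day 2 Pmel alone. Their day 2 ratios were positive in 4 and negative in 2. The part of these markers in the Slc24a5 value was not tested. Slc41a1, a magnesium carrier, had 48.7, 55.0 and 56.2 CPM, and was not called. Slc8a1, a sodium and calcium exchanger, had 18, 2 and 12 tags and was not called on day 1 (adjusted exact binomial p 0.00423).

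Carriers of chloride, bicarbonate, phosphate and sulfate had 16 clusters, none called on day 1 and 2 higher on day 2. The share called higher on day 2 was 12.5%, beside 3.41% of all clusters tested. Slc5a5, the sodium and iodide symporter best known from the thyroid, had 8, 20 and 42 tags and was called higher on day 2, with a ratio of 2.37 (interval 1.33 to 3.74). It too reached the 30-tag minimum only through its day 2 library, and the call is a description, as is the share of 12.5% that counts it. Without Slc5a5 the only call of the group was that of Slc26a2 cluster 1. Slc26a2 cluster 1, a sulfate carrier, had 39, 47 and 87 tags and rose by 1.19 (interval 0.64 to 1.79). Its other cluster had 11, 11 and 18 tags. Both clusters were highest on day 2. Slc12a2, the sodium, potassium and chloride cotransporter, had 54.0, 62.8 and 79.7 CPM, a day 2 ratio of 0.56 (interval 0.26 to 0.87). Slc20a2, a phosphate importer, had 72.5, 55.4 and 39.7 CPM, a ratio of -0.87 (interval -1.22 to -0.53), and Slc20a1, its relative, had 34, 26 and 42 tags. Neither phosphate importer was called.

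Carriers of lipids, hormones and drugs had 11 clusters. On day 1, 1 fell (9.09%, beside 1.35% of all clusters tested). Between day 1 and day 2 the same cluster rose (9.09%, beside 1.80%). This was Slc27a6, a fatty acid transport protein, with 96, 44 and 112 tags, a fall of 1.05 on the log2 scale on day 1 (interval -1.61 to -0.53) and a rise of 1.32 from day 1 to day 2 (interval 0.82 to 1.87). Like Slc16a1 it was low on day 1 alone. Slc27a4, the fatty acid transport protein that the epidermal barrier needs, went the other way, with 157, 275 and 195 CPM and a day 1 ratio of 0.81 (interval 0.64 to 0.98). The higher level of Slc27a4 was at site 7, with 353, 661 and 448 tags, and at site 10, with 6, 20 and 19 tags. At site 10 the day 1 ratio was 1.72 (interval 0.43 to 3.41). Site 1, with 65, 46 and 58 tags, was not higher. Slc27a3 had 57, 97 and 90 tags. Slc27a1, the fatty acid transport protein of muscle and fat, had 70, 58 and 41 tags at site 1 and 45, 64 and 62 at site 5. The sum over its sites was level. Its site 1 tag was placed in a transcript without a coding part, and its site 5 tag in the 3′ UTR of a protein-coding transcript. Slc22a23, an organic ion carrier without a settled substrate, had 46.6, 79.2 and 56.9 CPM, highest on day 1.

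Carriers of osmolytes and transmitters had 8 clusters, of which 1 rose on day 1 (12.5%, beside 1.44% of all clusters tested). Slc6a13, a carrier of GABA and taurine, had 44, 100 and 31 tags, rose by 1.24 on day 1 (interval 0.72 to 1.80) and fell by 1.69 from day 1 to day 2 (interval -2.34 to -1.11). Slc6a6, the taurine carrier, had 272, 309 and 378 CPM, a day 2 ratio of 0.48 (interval 0.34 to 0.62), short of 2-fold. Slc6a8, the creatine carrier, had 92.4, 128 and 135 CPM, and its sites differed: site 1 had 173, 116 and 160 tags, and site 4 had 83, 218 and 200 tags. At site 4 the day 1 ratio was 1.45 (interval 1.09 to 1.84), and at site 1 it was -0.51 (interval -0.86 to -0.16). The sites of the creatine carrier thus moved in opposite directions on day 1. Slc17a5, which exports sialic acid from lysosomes, had 44, 56 and 76 tags, and Slc6a9, a glycine carrier, had 59, 36 and 55 tags. Neither was called.

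Carriers of nucleosides, vitamins and choline had 17 clusters, none called on day 1 and 1 higher on day 2. The share called higher on day 2 was 5.88%, beside 3.41% of all clusters tested. Slc19a2, a thiamine carrier, had 48, 89 and 113 tags and rose by 1.27 by day 2 (interval 0.78 to 1.80, adjusted exact binomial p 1.29e-06). Slc52a3, a riboflavin carrier, had 99, 130 and 54 tags and fell by 1.28 from day 1 to day 2 (interval -1.77 to -0.82). These 2 vitamin carriers were called in different comparisons. Slc52a3 had a day 2 ratio over day 0 of -0.82, and Slc19a2 a day 2 ratio over day 1 of 0.33, neither called. For day 1 over day 0 both ratios were positive, 0.95 for Slc19a2 and 0.46 for Slc52a3, and not called. Slc44a2, a choline carrier-like protein, had 222, 293 and 215 CPM, Slc44a1, a choline carrier, 139, 109 and 98 tags, and Slc29a1, an equilibrative nucleoside carrier, 228, 190 and 187 tags. None of these 3 was called. Slc46a2 had 53.3, 66.2 and 87.1 CPM.

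The 4 members that fell between day 1 and day 2, Slc25a3, Slc39a8, Slc6a13 and Slc52a3, all had their highest level on day 1. All 7 inner root sheath markers fell between the same days, from 62071 to 24579 CPM in sum, with none at 0. The hair shaft markers, 6 of 9 tested with Krt81, Krt83 and Krt85 not among them, summed to 7184, 11134 and 7329 CPM. The part of the hair follicle in these 4 values was not tested.

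Sugar carriers, with 16 clusters, and carriers of nucleotide sugars in the Golgi and endoplasmic reticulum, with 20, had no call in any comparison. Slc2a1, the basal glucose carrier of most cells, had 52, 37 and 49 tags, a day 2 ratio of -0.04 (interval -0.63 to 0.55). Slc2a4, the insulin-responsive glucose carrier of muscle and fat, had 24.9, 17.5 and 18.7 CPM, a ratio of -0.41 (interval -0.96 to 0.13). At this depth a change of either within these intervals was not detectable. Slc2a8 had 28.4, 34.2 and 45.9 CPM, a ratio of 0.69 (interval 0.27 to 1.11). Slc45a3 had 73.9, 74.7 and 81.2 CPM and Slc50a1, a sugar carrier, 41.6, 39.8 and 45.2 CPM. Slc5a1, the sodium-coupled glucose carrier, had 12, 30 and 38 tags, a day 2 ratio of 1.67 (interval 0.74 to 2.78), and was not called (adjusted exact binomial p 0.00126).

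In the Golgi group Slc35b2, which supplies the sulfate donor used on proteoglycans, had 98.5, 83.3 and 110 CPM, and Slc35e1 had 69.3, 59.5 and 49.6 CPM. Slc35e4 had 46, 48 and 68 tags. These 3 differed by less than 2-fold between any days. Slc35f6 had 52.3, 63.6 and 33.4 CPM, and its sites moved apart by day 2, with 126, 118 and 49 tags at site 1, a ratio of -1.31 (interval -1.82 to -0.83), and 15, 39 and 32 at site 2, a ratio of 1.11 (interval 0.21 to 2.13). The 2 members that carry the prefix without being carriers, Slc9a3r1, a scaffold of the cell cortex, with 53, 50 and 54 tags, and Slc7a6os, with 46, 31 and 27 tags, were not called.

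Other transport genes were set beside the members. P-type ATPases are pumps that set the ion gradients on which many carriers run. Among them Atp12a, a proton and potassium pump, had 30.2, 117 and 183 CPM and rose on both days, by 1.95 and 2.59 on the log2 scale. Atp1b2, a sodium pump subunit, had 16.7, 19.3 and 34.5 CPM and rose by 1.04 by day 2. Of 7 aquaporins 4 were tested, and Aqp1, the water channel of vessels and red cells, rose by 1.29 by day 2, with 86.4, 148 and 212 CPM. That 1 call was 25% of the 4, beside 3.41% of all clusters tested. Of 30 ABC transporters 24 were tested, and Abca8a and Abcc5 rose on day 1. On day 2 Abca1, the cholesterol exporter, Abca5 and Abcc5 rose and Abcb8 fell. Of the 24, 8.33% and 12.5% were called higher on days 1 and 2, beside 1.44% and 3.41% of all clusters tested. On day 2, 4.17% were called lower, beside 3.03%. Abca1 had 38.4, 58.0 and 115 CPM. Of 8 partner proteins of carriers 5 were tested and none was called.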

How the data were processed

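Per the labels' protocols, polyadenylated RNA was copied to cDNA, cut with NlaIII and MmeI, amplified by PCR and sequenced as 21-base tags. Per the file headers, the authors deposited raw counts of tags per UniGene cluster, their TPM (the same counts per 1000000 kept tags) and the copies of each tag at each CATG site. The sources used here give neither aligner nor build. The kept tags were 6030092, 6070061 and 5666061 on days 0, 1 and 2. Tags listed have 2 or more copies, so an unlisted gene need not have had none.

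Clusters were named by exact tag match to GENCODE M21 (GRCm38). Libraries were scaled with edgeR 4.0.16 (TMM), the log2 ratios carry a pseudocount of 0.5 tags, and intervals are Clopper-Pearson for ratios and Poisson for levels, at 95%. Without replicates edgeR's quasi-likelihood test was not possible, and the exact conditional binomial test stood in for it (scipy 1.17.1, two-sided, Benjamini-Hochberg over 13812 clusters); its script was tested on simulated data. DESeq2 1.42.0 gave alternative size factors. Substrate groups, marker lists and members were chosen with earlier results of these data known. Named were all members called, in each group the 2 with the most tags and those with the largest and smallest day 2 ratio at 20 CPM or more, and a fixed set of well-known carriers; the other members, sites and pathway genes named were chosen after their values were seen. Some transport genes, among them 1 Slc gene left out by the rule for choosing members, are not reported here.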

Additional observations from a re-analysis of the deposited data

How the results depend on the processing

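The counts of members called moved with the threshold, with assumed variation between replicates and with scaling. At an adjusted p of 0.05 and 1.5-fold, 19 rose and 14 fell on day 1, 24 and 16 on day 2 over day 0, and 14 and 10 on day 2 over day 1. With an assumed coefficient of variation of 0.2 between replicates (edgeR's exact test), 1 and 0, 2 and 1, and 0 and 1 were called, namely Slc25a48, then Slc13a3, Slc5a5 and Slc39a8, then Slc39a8 again; at 0.4, which no replicate can check, 0 were called in each comparison and direction. Scaling by all kept tags or by tags outside hair and muscle genes left 3 called higher on day 1, without Slc43a2 cluster 2 and Slc25a12, and gave 5 and 4 called higher on day 2 over day 1. These scalings moved the median of all clusters for day 2 over day 1 from -0.02 to 0.10 and 0.08. With the site of most tags alone, 8 members were called lower on day 2 over day 0, and Slc43a2 cluster 2, Slc16a1 and Slc25a42 lost their day 1 calls and Slc25a42 and Slc38a4 their day 2 calls. Slc38a2 cluster 1 turned from 1.10 to -0.12 with exact tags of 1 gene, which leave out its main tag. The DESeq2 size factors kept all calls of named members. No paired analysis was possible because each day has 1 library, and for the same reason no replicate could be left out. Low counts limit the 94 members under 20 CPM.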
